A study of Mus musculus with 18 samples.

Results

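The 8 genes *Actl7a*, *Actl7b*, *Actl9*, *Actrt2*, *Capza3*, *Ccin*, *Cylc2* and *Spem1*, which serve the perinuclear theca, the actin-like cytoskeleton and the reshaping of the spermatid head, were followed through RNA of the RNP and polysome fractions of mouse spermatogenic cells. They were chosen by name from 37310 annotated genes, and all 8 were among the 14572 genes tested, which had an FPKM (fragments per kilobase of transcript, scaled to the mapped fragments of the library) of at least 1 in at least 3 libraries.

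The perinuclear theca is the dense cytoskeletal layer that wraps the sperm nucleus beneath the acrosome and, behind it, as the calyx. *Cylc2* (cylicin 2) and *Ccin* (calicin, a kelch-repeat protein) are basic proteins of this layer, and *Actl7a*, *Actl7b*, *Actl9* and *Actrt2* code for testis proteins of the actin superfamily, several of which are found in it. *Capza3* codes for the α subunit of actin capping protein made in the testis, and *Spem1* for a protein that spermatids need to shed the cytoplasm around the head. Spermatids store many mRNAs in ribonucleoprotein particles (RNPs), where they are not translated, and load them onto polysomes later.

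All libraries came from adult wild type mice, of the strain C57BL/6 in the labels and C57BL/6 J in the methods. Pachytene spermatocytes (meiotic cells), round spermatids and elongating spermatids (haploid cells that follow meiosis) were purified by STA-PUT sedimentation in the presence of cycloheximide, from pools of 8 testes, and their cytoplasm was separated on a sucrose gradient into RNP and polysome fractions. The 6 groups of cell type and fraction had 3 libraries each, 18 in all, numbered 1 to 3. Neither the labels nor the methods tie the numbers to separate animals or purifications, so the p values measure only the spread between these libraries, which may be technical. The study gives the purity by morphology as lower for elongating spermatids than for the other cells.

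The libraries numbered 2 of pachytene and round cells stood apart in both fractions. Their summed FPKM of 9 elongating spermatid markers was 42.5 to 128, against 346 to 4995 in the other pachytene and round libraries and 7741 to 32432 in elongating ones. Their summed FPKM of 13 Sertoli cell markers was 1396 to 2728, with no marker at 0, and pachytene polysome 3 was as high at 1773; the other pachytene and round libraries had 53.1 to 504 with 2 to 7 of the 13 at 0, and the 6 elongating libraries had 31.4 to 91.0 with *Amh*, *Fshr*, *Gata4* and *Sox9* at 0 in all of them. The study used *Clu*, which it calls ubiquitous, and *Tnp2*, with delayed translation, to check its fractions. *Clu*, a transcript abundant in Sertoli cells, stood at 485 to 1413 in the 4 libraries numbered 2 of pachytene and round cells. Pachytene polysome 3 lay within that range at 664, and the other pachytene and round libraries had 18.8 to 161. *Tnp2*, a transition protein gene of spermatids, stood at 5.57 to 18.3 in the 4 libraries, against 121 to 962 in the other pachytene and round libraries. *Tnp2* and other spermatid transcripts were therefore measured in libraries labelled pachytene. The summed FPKM of 8 round spermatid markers was 97.2 in round RNP 2 and 98.1 in round polysome 2. It was 421 to 1266 in the other round libraries and 114 to 760 in the pachytene ones. These 2 round libraries were thus below every pachytene library in the markers of their own label. Their summed FPKM of 5 spermatogonium markers, 276 and 406, was the highest of the 18 libraries. The part of these differences in the results was not tested, and the comparisons of the 8 genes between cell types and fractions are given with and without the 4 libraries; correlations and related genes are given with all libraries only.

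**Figure D1:**
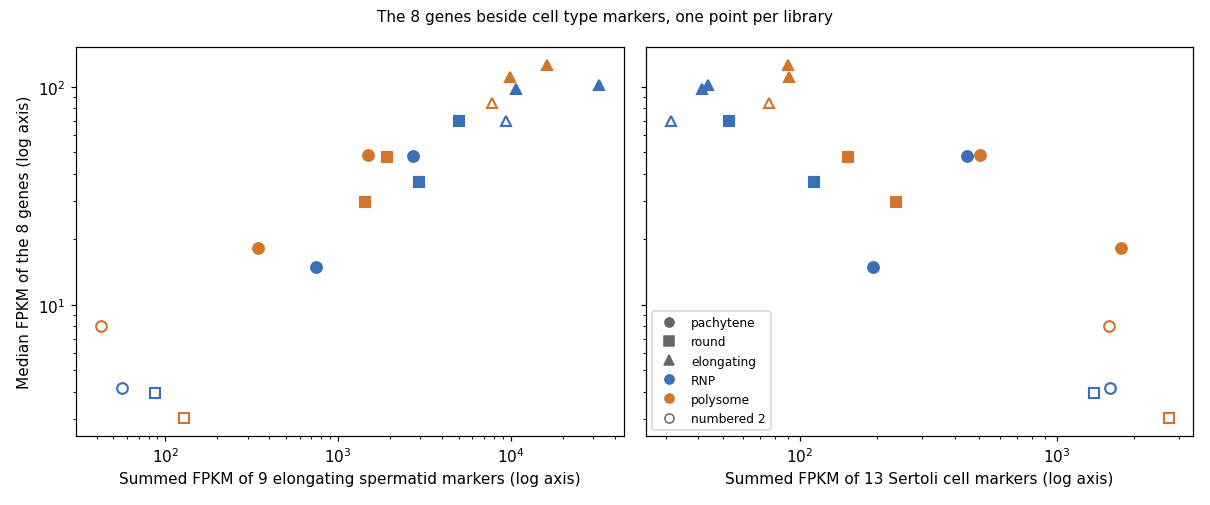
Each point is 1 of the 18 libraries, with the median FPKM of the 8 genes on the vertical log axis against the summed FPKM of 9 elongating spermatid markers (left) and 13 Sertoli cell markers (right) on horizontal log axes. The 4 open points of pachytene and round cells numbered 2 have medians of 3.02 to 8.02 and lie at the low end of the spermatid markers and at the high end of the Sertoli cell markers, while the elongating libraries have medians of 69.3 to 126.

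In the annotation for NCBIM37 (mm9), 6 of the genes have 1 exon and no intron. *Ccin* lies at chr4:43996376-43998405 on the plus strand, *Actrt2* at chr4:154040537-154041976 on the minus strand, *Capza3* at chr6:139990046-139991310 on the plus strand and *Actl9* at chr17:33569842-33571213 on the plus strand. *Actl7b* (chr4:56752879-56754297, minus strand) and *Actl7a* (chr4:56756294-56757797, plus strand) are neighbours with 1996 bases between them and are transcribed away from each other. *Cylc2* (chr4:51229550-51242800, plus strand) has 5 exons and *Spem1* (chr11:69634378-69635682, minus strand) has 3.

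The assembled transcripts did not always keep to these limits. *Actl7a* is annotated without an intron, yet in 11 of 18 libraries its transcript held a further exon upstream, between the 2 genes, joined to base 56756299 of the annotated exon. In 9 of these, 7 polysome and 2 RNP libraries, the upstream exon ended at base 56755070 and the intron was 1228 bases long. The 20 bases around each end of this intron (10 of exon and 10 of intron, first and last 2 intron bases in capitals) are shown because neither end is annotated. The same is shown for the unannotated introns upstream of *Actl9* (3 polysome libraries) and *Ccin* (3 libraries).
Actl7a upstream exon to intron, chr4:56755061-56755080: actaagtgtgGTgagtatgg
Actl7a intron to annotated exon, chr4:56756289-56756308: ctgatttaAGtctttcaggc
Actl9 upstream exon to intron, chr17:33569698-33569717: tttctcccagGTaaggttta
Actl9 intron to exon, chr17:33569822-33569841: gccaacccAGacctggatca
Ccin upstream exon to intron, chr4:43995809-43995828: ttctgctccaGTgagtgtca
Ccin intron to exon, chr4:43996357-43996376: ctctggtcAGctgctctgca

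All 6 ends carry the GT and AG of most introns on the strand of the gene, which the aligner looks for, so this is no separate evidence. *Actl9* transcripts began 585 to 749 bases before the annotated start in all 18 libraries, spliced or not. Those of *Ccin* began at least 100 bases before it in 10 of the 16 libraries that had one. *Cylc2* ran at least 100 bases past its annotated end in 13 of 18 libraries, by up to 20851 bases, through exons joined by introns that are not annotated. The junction from exon base 51245251 to exon base 51249064 was found in 13 libraries, 6 RNP and 7 polysome, and the last, from exon base 51249246 to exon base 51263337, in 7.
Cylc2 exon to intron, chr4:51245242-51245261: aaacatcaagGTctgtctca
Cylc2 intron to exon, chr4:51249054-51249073: tcattcaaAGaatgtgataa
Cylc2 exon to last intron, chr4:51249237-51249256: aaaatctatgGTatgtgata
Cylc2 last intron to exon, chr4:51263327-51263346: tatattccAGgtatactatg

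The *Actl7a* transcript also reached across *Actl7b*. In round polysome 3 and elongating polysome 1 and 3 its upstream exon covered the whole *Actl7b* exon on the opposite strand, and both transcripts had the same outer end. In elongating polysome 2 the *Actl7b* transcript covered the upstream exon of *Actl7a*. The transcripts shared 749 to 2336 exon bases in these 4 libraries and none in the other 14. The kit marks strand, but whether the assembly used it is not given in the sources used here, so the reads of the 2 genes cannot be told apart where these transcripts overlap. The same holds for *Capza3*, which overlaps *Plcz1* on the opposite strand, where 2 transcripts with an FPKM of 8.60 and 27.1 spanned the whole exon in elongating RNP 3.

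**Figure D2:**
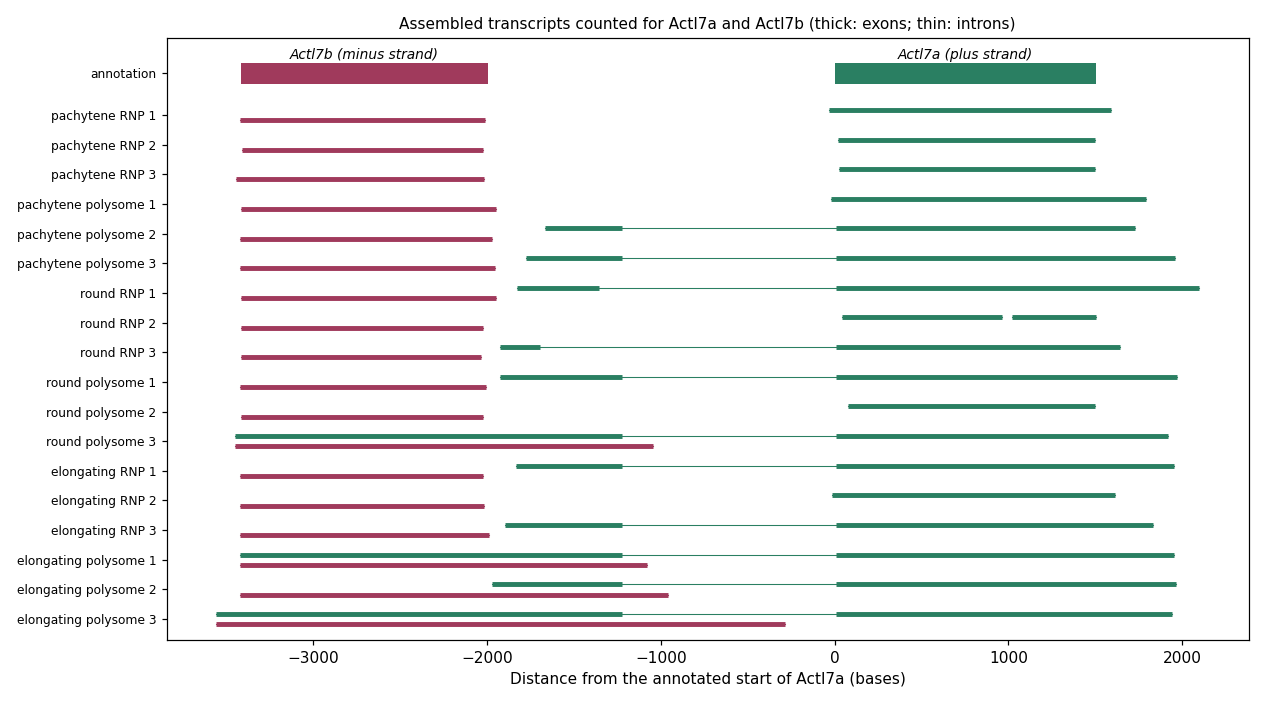
Exons (thick) and introns (thin) of the transcripts counted for Actl7a (green) and Actl7b (red) in each library, against the distance in bases from the annotated start of Actl7a, with the annotated exons on top. The upstream exon of Actl7a appears in 11 libraries, and in 3 of them it reaches across Actl7b; in elongating polysome 2 the Actl7b transcript reaches over it.

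Promoter sequences of RefSeq (GRCm38.p6, 250 bases before to 50 after a start) were found for 6 of the genes, without *Capza3* and *Cylc2*. The 8 letters TGATGTCA, searched on both strands, were present in those of *Actl7a*, *Actl7b* and *Actl9*, that is 3 of 6, against 3.62% of all 32851 promoters. These letters were picked after the *Actl7a* promoter had been read, so the count carries no test. TGACGTCA, the core of the cyclic AMP response element, was present in *Ccin* alone of the 6, against 1.79% of all promoters. TATAAA was searched as well and was present in *Actl9* alone of the 6, against 13.6% of all promoters. The windows of TGATGTCA and TGACGTCA are shown with the match in capitals, written on the strand of the gene, which for *Actl7b* holds the reverse complement TGACATCA. Each was found once on its chromosome in NCBIM37, whose coordinates are given.
Actl7a, chr4:56756246-56756269: acaatcagTGATGTCActgttggg
Actl7b, chr4:56754318-56754341: attcctggTGACATCAcaacccaa
Actl9, chr17:33569776-33569799: aagcacaaTGATGTCAcagaccac
Ccin, chr4:43996318-43996341: ccattctaTGACGTCAccctctct

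Transcripts began upstream of the window in all 18 libraries for *Actl9*, in 11 of 18 for *Actl7a* (where the window lies in the unannotated intron), in 10 of 16 for *Ccin* and in 6 of 18 for *Actl7b*. The windows of *Actl9* and *Ccin* also lie in the unannotated introns shown above, each found in 3 libraries. A match of letters is a description and not a site of binding.

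Gene values were the summed FPKM of the transcripts matched to a gene. FPKM is per length of the assembled transcript, so levels are compared between genes as assembled, though some transcripts ran past the exon. In elongating polysomes the order was *Actrt2* (582 ± 216, SD, n = 3), *Actl7b* (553 ± 81.6), *Actl9* (116 ± 36.4), *Spem1* (114 ± 57.7), *Capza3* (102 ± 23.1), *Actl7a* (68.7 ± 19.2), *Cylc2* (45.1 ± 14.1) and *Ccin* (38.1 ± 13.4). The values of neighbours in this order overlapped, except at the step from *Actl7b* to *Actl9*. In elongating RNPs *Actl7b* led (281 ± 77.4), before *Actrt2* (232 ± 71.1) and *Spem1* (185 ± 65.3), and *Ccin* was again last (30.7 ± 5.81); neighbours overlapped there except *Spem1* and *Actl9* (97.7 ± 29.2) and *Capza3* (66.5 ± 24.5) and *Cylc2* (32.6 ± 9.20). In pachytene and round groups *Actl7b* had the highest mean and neighbours overlapped, except *Actl7b* (358 ± 195) and *Actrt2* (57.3 ± 43.8) in pachytene polysomes. The order depended on the measure. With FPKM over all bases of the transcript, divided by the annotated exon, elongating polysomes had 773, 1094 and 1293 for *Actl7b* and 584, 580 and 809 for *Actrt2*. *Capza3* (293, 251 and 288) then lay above *Actl9* (219, 124 and 154).

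*Cylc2*, the theca protein gene, had FPKM values of 10.9, 9.09 and 5.68 in pachytene RNPs and 10.8, 2.58 and 5.65 in pachytene polysomes (libraries 1, 2 and 3 in this and the next lists). In round spermatids it had 37.4, 7.83 and 12.4 in RNPs and 30.8, 3.38 and 11.1 in polysomes, and in elongating spermatids 31.0, 24.3 and 42.4 in RNPs and 58.2, 47.0 and 30.1 in polysomes. All 6 elongating values lay above all 6 pachytene values, and round library 1 was as high as elongating ones. In pachytene RNP 2 and both round libraries numbered 2 the transcripts covered no more than 55.4% of the exon bases. Weighted by the exon bases they cover, pachytene RNP 2 would be 2.27, round RNP 2 1.46 and round polysome 2 0.953. Pachytene RNP 2 would then be the lowest of its group, beside 10.1 and 3.29.

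*Ccin*, the other theca gene, had 14.8, 1.77 and 4.56 in pachytene RNPs and 15.8, 1.88 and 7.94 in pachytene polysomes. It had 28.1, 0 and 16.2 in round RNPs, 19.8, 0 and 16.3 in round polysomes, 30.7, 24.8 and 36.4 in elongating RNPs and 53.3, 28.2 and 32.8 in elongating polysomes. No transcript was assembled in either round library numbered 2, which is listed here as 0 and does not show that the RNA was absent. The elongating RNP values lay above all pachytene values, and the round values of libraries 1 and 3 lay between 16.2 and 28.1. The 1.77 of pachytene RNP 2 came from a piece covering 30.5% of the exon, and weighted by the exon bases it covers it would be 0.539.

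*Actrt2*, the gene of an actin-related protein of the calyx, had 68.1, 3.81 and 14.9 in pachytene RNPs, 96.3, 9.94 and 65.6 in pachytene polysomes, 142, 1.41 and 70.7 in round RNPs and 183, 5.28 and 132 in round polysomes. It reached 204, 179.6 and 313 in elongating RNPs and 462, 452 and 831 in elongating polysomes. Every elongating polysome value was above every other value of the gene. The 5.28 of round polysome 2 was the sum of 2 pieces, and weighted by the exon bases they cover it would be 1.81.

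*Actl7b*, the other actin-like gene of this pair, had 239.9, 36.5 and 64.4 in pachytene RNPs, 556, 167 and 352 in pachytene polysomes, 374, 25.5 and 253 in round RNPs, and 919, 31.0 and 347 in round polysomes. In elongating spermatids it had 228, 245 and 369.9 in RNPs and 468, 631 and 561 in polysomes. Its highest single value was thus in round polysome 1, and elongating and round values overlapped in both fractions.

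Its neighbour *Actl7a* had 49.4, 4.52 and 16.5 in pachytene RNPs, 54.4, 10.03 and 25.0 in pachytene polysomes, 63.3, 5.32 and 41.0 in round RNPs and 76.1, 2.66 and 25.2 in round polysomes. In elongating spermatids it had 69.5, 74.3 and 77.0 in RNPs and 69.0, 87.8 and 49.4 in polysomes. The 3 elongating RNP values lay close together (73.6 ± 3.78) and above all earlier RNP values, while the polysome values overlapped with those of round and pachytene library 1.

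*Actl9*, a further actin-like gene, had 47.0, 5.08 and 15.3 in pachytene RNPs, 58.6, 24.7 and 25.8 in pachytene polysomes, 75.6, 2.53 and 31.997 in round RNPs and 63.2, 2.50 and 34.0 in round polysomes. Elongating spermatids had 109.5, 64.4 and 119 in RNPs and 156, 86.1 and 104 in polysomes. The elongating polysome values were above all pachytene and round values of both fractions.

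*Capza3*, the capping protein gene, had 26.1, 2.57 and 14.8 in pachytene RNPs, 43.3, 6.10 and 11.4 in pachytene polysomes, 24.9, 16.4 and 26.1 in round RNPs and 32.5, 6.75 and 35.6 in round polysomes. Elongating spermatids had 93.9, 59.2 and 46.5 in RNPs and 95.4, 83.0 and 128 in polysomes, all above every earlier value. The 16.4 of round RNP 2 and the 6.75 of round polysome 2 were each the sum of 2 pieces, which covered 38.6% and 56.6% of the exon. Weighted by the exon bases they cover, these values would be 3.14 and 1.73. In 6 of the 18 libraries, among them elongating RNP 3 and all 3 elongating polysome ones, less than 50% of the transcript lay in the exon because it ran past it, and a matching rule that leaves such transcripts out gives 0 there.

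*Spem1*, the gene for the shedding of cytoplasm, had no transcript in the 4 libraries numbered 2 of pachytene and round cells. It had 135, 0 and 7.46 in pachytene RNPs, 16.4, 0 and 2.07 in pachytene polysomes, 87.8, 0 and 46.9 in round RNPs and 22.2, 0 and 5.96 in round polysomes. It reached 257, 129 and 169 in elongating RNPs and 169.8, 54.6 and 117 in elongating polysomes. The 135 of pachytene RNP 1 and the 46.9 of round RNP 3 came from pieces of 200 and 266 bases, and weighted by the exon bases they cover they would be 25.9 and 8.65.

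**Figure D3:**
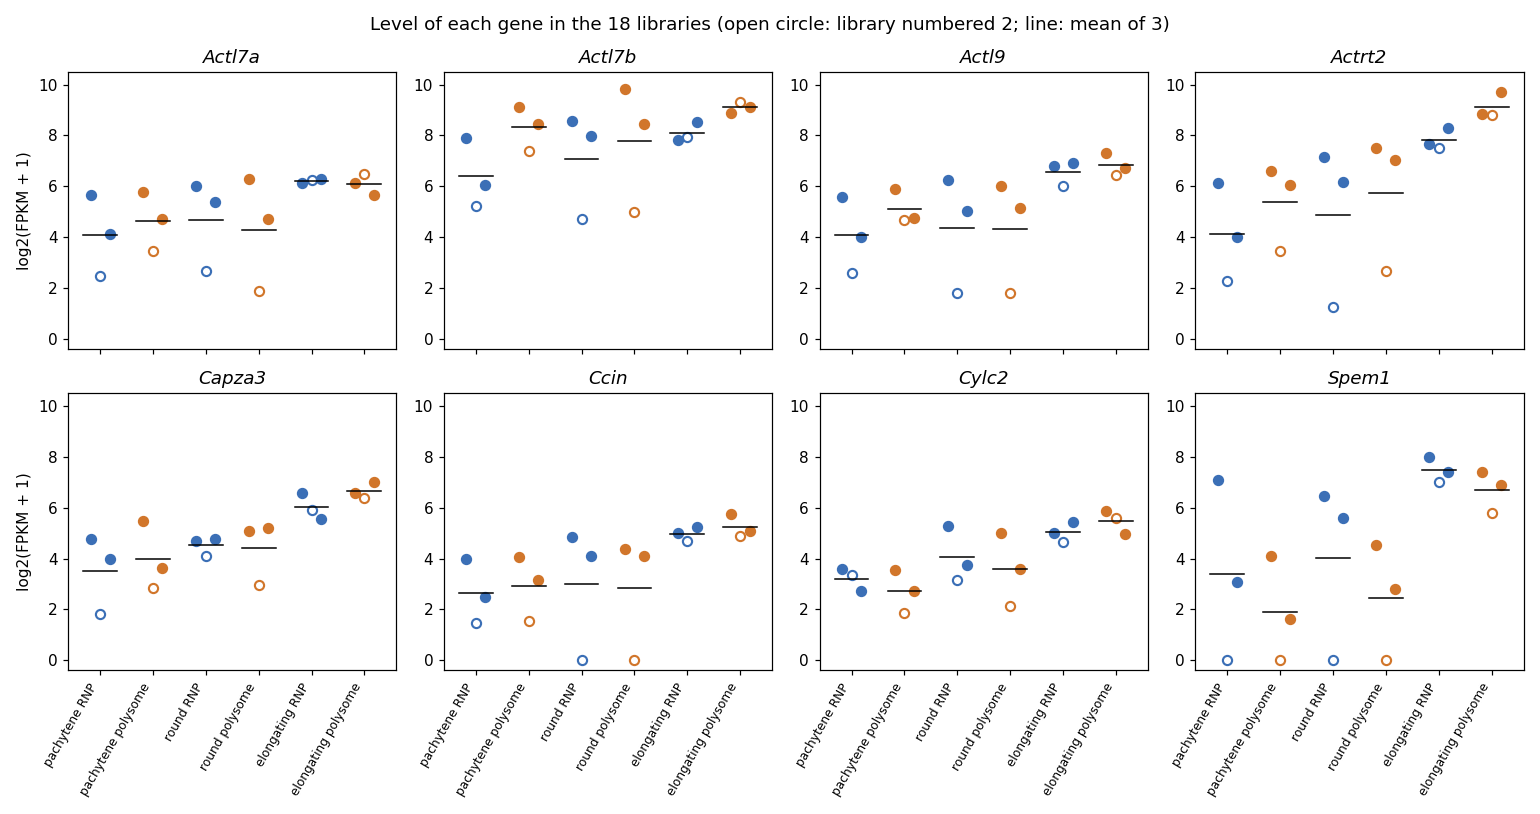
log2(FPKM + 1) of each gene in each library by group (blue, RNP; orange, polysome), with the mean of 3 as a line and the libraries numbered 2 as open circles. The open circles of pachytene and round cells are the lowest of their group in every panel, except for Cylc2 in pachytene RNPs, while those of elongating cells lie closer to the other 2 libraries.

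Elongating spermatids were compared with pachytene spermatocytes in each fraction by limma on log2(FPKM + 1), with p values adjusted by Benjamini-Hochberg over all 14572 genes and called under 0.05. In polysomes, *Cylc2* and *Capza3* were higher, 2 of 8 genes against 3.19% of all genes tested called higher. The log2 fold change was 2.76 ± 0.68 (SE) for *Cylc2* (adjusted p = 0.0297, limma) and 2.69 ± 0.77 for *Capza3* (adjusted p = 0.0488, limma). Fewer cells with the transcript and less RNA per cell cannot be told apart here, as in the other comparisons of cell types. *Spem1* (4.78 ± 1.71, adjusted p = 0.0999 by limma) and *Actrt2* (3.76 ± 1.43, adjusted p = 0.119 by limma) had larger differences that did not pass. The other 4 were at 2.32 ± 1.20 (*Ccin*), 1.71 ± 1.07 (*Actl9*), 1.43 ± 1.04 (*Actl7a*) and 0.78 ± 1.11 (*Actl7b*). The median over the 8 was 2.50, beside -0.24 over all genes tested, and 6 of the 8, without *Actl7a* and *Actl7b*, had elongating values wholly above pachytene values, against 16.1% of all genes.

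Both calls depended on single libraries. Leaving out 1 library at a time, *Cylc2* was called in 13 of 18 fits and *Capza3* in 6 of 18, and neither was called without pachytene polysome 2 or 3 or any of the 3 elongating polysome libraries. Without the 4 libraries that stood apart, 4 genes were higher in elongating polysomes, against 4.91% of all genes, namely *Actrt2* (2.80 ± 0.61, adjusted p = 0.0176 by limma), *Capza3* (2.11 ± 0.51, adjusted p = 0.0267), *Cylc2* (2.33 ± 0.58, adjusted p = 0.0289) and *Spem1* (3.83 ± 1.10, adjusted p = 0.0492). The part of the high Sertoli cell markers of pachytene polysome 3, which remains in that fit, was not tested. *Actl7b* was then at 0.31 ± 0.64. With FPKM over all bases of the transcript, which spreads it over longer transcripts, *Capza3* (3.92, adjusted p = 0.0419 by limma) and *Spem1* (4.88, adjusted p = 0.0447) were called and *Cylc2* (3.41, adjusted p = 0.0678) was not. With transcripts that run past the exon left out, *Cylc2* alone was called and *Capza3* turned to -3.98, since its 3 elongating polysome values became 0. The share of all genes called is not given for this setting or for FPKM over all bases. The calls under both are therefore not read as a result about the genes followed here.

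In RNPs, no gene of the 8 was called between elongating and pachytene cells by limma, against 0.590% of all genes called higher, and 5 had an unadjusted p under 0.05, against 10.7% of all genes higher at that p. All 8 were higher in the mean, with log2 fold changes from 1.71 (*Actl7b*) to 4.09 (*Spem1*) and a median of 2.41, beside 0 over all genes to 2 decimals. *Capza3* (2.49 ± 0.77, adjusted p = 0.128 by limma), *Cylc2* (1.82 ± 0.68, adjusted p = 0.204) and *Actrt2* (3.70 ± 1.43, adjusted p = 0.215) had the 3 smallest adjusted p. The elongating values of 6 of the 8 lay wholly above the pachytene ones, against 12.0% of all genes, and the exceptions were *Actl7b* and *Spem1*. Without the 4 libraries the median was 1.76 and again none was called, against 0.858% of all genes called higher, the smallest adjusted p being 0.0595 for *Actrt2* (2.77 ± 0.61, limma).

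**Figure D4:**
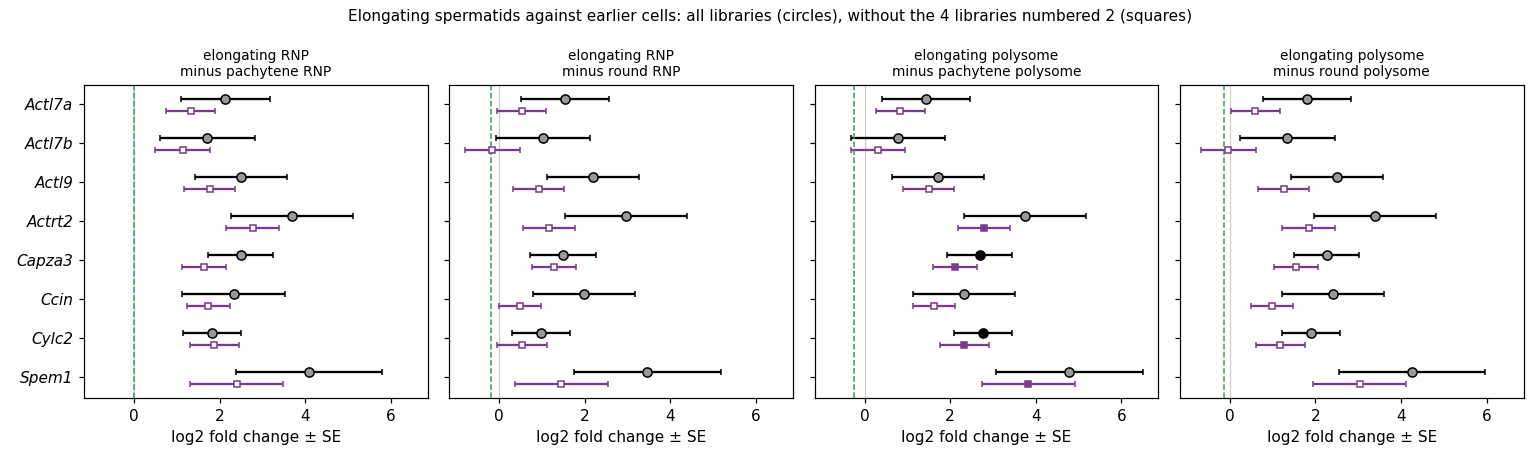
log2 fold change with its SE of each gene in elongating spermatids against pachytene or round cells, in RNPs and polysomes, with all 18 libraries (circles) and without the 4 pachytene and round libraries numbered 2 (squares); black circles and filled squares have an adjusted p under 0.05, and the dashed line is the median of all genes tested. The circles all lie above 0, and Actl7b lies slightly below 0 against round cells without the 4 libraries.

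Against round spermatids no gene of the 8 was called in either fraction by limma. In polysomes, where 0.405% of all genes were called higher, 5 had an unadjusted p under 0.05, against 8.87% of all genes higher at that p, and the median log2 fold change was 2.33, beside -0.15 over all genes. *Spem1* (4.25 ± 1.71), *Actrt2* (3.38 ± 1.43), *Actl9* (2.51 ± 1.07) and *Capza3* (2.26 ± 0.77) were among 5 genes, with *Ccin*, whose elongating values lay wholly above the round ones, against 12.2% of all genes. In RNPs, where 0.0755% were called higher and none of the 8 had an unadjusted p under 0.05, against 4.54% of all genes higher at that p, the median was 1.76, beside -0.19 over all genes. The elongating RNP values of *Actl7a*, *Actrt2*, *Capza3* and *Spem1* did not overlap with the round ones, against 5.17% of all genes.

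The size of these differences depended on the libraries numbered 2. Without the 4 libraries the median was 0.73 in RNPs and 1.22 in polysomes, and *Actl7b*, at 1.02 ± 1.11 and 1.34 ± 1.11 with all libraries, became -0.16 ± 0.64 and -0.04 ± 0.64. None of the 8 was called without them, against 0.0343% (RNPs) and 0.309% (polysomes) of all genes called higher. *Spem1* stayed highest in polysomes at 3.03 ± 1.10, with an adjusted p of 0.304 by limma.

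No difference between round spermatids and pachytene spermatocytes was called. None of the 8 genes was called in RNPs, where 0.00686% of all genes were, or in polysomes, where 0.178% were, and none had an unadjusted p under 0.05 by limma, against 4.39% and 7.72% of all genes. On the log2(FPKM + 1) scale all 8 were higher in the mean in RNPs, from 0.30 (*Actl9*) to 0.999 (*Capza3*). In polysomes 4 were higher and 4 lower, from -0.80 (*Actl9*) to 0.86 (*Cylc2*). By mean FPKM, *Spem1* was lower in round than pachytene RNPs (44.9 against 47.4). *Actl7a*, *Actl7b* and *Ccin*, lower in polysomes on the log scale, had higher mean FPKM in round polysomes. The values of the 2 groups overlapped for all 8; of all genes, 3.09% lay wholly higher and 1.33% wholly lower in round RNPs, and 3.69% and 7.75% in round polysomes. Without the 4 libraries all 8 were higher in the mean of log2(FPKM + 1) in both fractions, and none was called by limma. The median went from 0.66 to 1.10 in RNPs and from 0.14 to 0.61 in polysomes. *Capza3* in RNPs was then the lowest of the 8 at 0.36 ± 0.56, and *Spem1* was again lower there by mean FPKM (67.3 against 71.0).

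The fractions were compared within each cell type, which asks whether the RNA of a gene lies more in polysomes or in RNPs. All genes tested had median log2 differences (polysome minus RNP) of 1.01 in pachytene, 0.65 in round and 0.71 in elongating cells, and 0.18, 0.07 and 0.02 with median-ratio scaling, so directions are read against these medians. The medians of the 8 were lower, at 0.51, -0.14 and 0.36, and at -0.57, -0.79 and -0.53 with that scaling. None of the 8 was called by limma, against 6.44%, 0.274% and 1.29% of all genes called in either direction, and none had an unadjusted p under 0.05 in any of the 3 cell types, against 28.4%, 14.9% and 20.4% of all genes. In elongating cells the polysome values of *Actl7b* (0.997 ± 1.11) and *Actrt2* (1.30 ± 1.43) lay wholly above the RNP values, 2 of 8 against 37.4% of all genes. In pachytene and round cells no gene of the 8 did, against 29.8% and 14.4%. Without the 4 libraries again none was called in the 3 cell types, against 12.6%, 1.02% and 7.56% of all genes called higher.

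*Spem1* stood at the other end. It was lower in polysomes in the mean of each cell type, by log2 differences of -1.48 ± 1.71, -1.57 ± 1.71 and -0.78 ± 1.71, none of which passed (adjusted p = 0.572, 0.676 and 0.864 by limma). Without pachytene RNP 1, the library with the 200-base piece, the pachytene difference was 0.37, and the round difference ranged from -3.58 without round RNP 2 to -0.35 without round RNP 1. Without the 4 libraries numbered 2 the differences were -2.21, -2.36 and -0.78, and none passed. That fit keeps pachytene RNP 1 and round RNP 3, whose *Spem1* values came from pieces of 200 and 266 bases. Over the 15 alternatives other than leaving out 1 library, the differences ranged from -2.29 to -0.68, from -3.06 to -0.82 and from -1.68 to -0.75. Whether the polysome minus RNP difference itself differed between pachytene and round, or round and elongating, cells was tested as an interaction, which was called for none of the 8, against 0.0206% and 0.00686% of all genes, with no unadjusted p under 0.05 by limma, against 2.83% and 2.55% of all genes; without the 4 libraries again none was called.

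A ratio of 2 genes within a library does not depend on scaling between libraries. The ratio of *Actl7b* to *Actl7a* was 4.85, 8.09 and 3.91 in pachytene RNPs and 10.2, 16.7 and 14.1 in pachytene polysomes. It was 5.90, 4.79 and 6.17 in round RNPs against 12.1, 11.7 and 13.8 in round polysomes, and 3.28, 3.30 and 4.81 in elongating RNPs against 6.78, 7.19 and 11.4 in elongating polysomes. In each of the 3 cell types every polysome value lay above every RNP value, with group means of 5.62 ± 2.19, 5.62 ± 0.73 and 3.80 ± 0.87 (SD, n = 3) in RNPs and 13.6 ± 3.24, 12.5 ± 1.10 and 8.44 ± 2.53 in polysomes. The pair is 1 of 28 pairs among the 8 genes and was singled out after its values were seen, so it has no test. For comparison, 64 of the other 14571 genes, or 0.439%, lay above *Actl7a* in this way in all 3 cell types. The ratios of 13.8, 6.78, 7.19 and 11.4 come from the 4 libraries, round polysome 3 and all elongating polysome ones, in which the transcripts of the pair overlap. The round polysome libraries without overlap, at 12.1 and 11.7, also lay above the round RNP values, and no elongating polysome library was free of overlap.

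Both genes were matched by transcripts that differ in length, so the ratio was also taken with FPKM over all bases of the transcript, divided by the annotated exon. It was then 4.46, 8.03 and 4.003 against 8.76, 11.9 and 8.74 in pachytene, 3.59, 10.3 and 4.85 against 6.80, 12.1 and 8.48 in round, and 1.90, 3.01 and 2.91 against 4.06, 6.93 and 9.22 in elongating cells. The polysome means stayed higher in all 3, and the round groups overlapped through round RNP 2, where *Actl7a* had been assembled in 2 pieces whose FPKM were summed. On the log2(FPKM + 1) scale the difference between fractions was 1.37, 1.08 and 1.13 with gene FPKM, 1.47, 1.08 and 1.13 without the 4 libraries numbered 2, and 0.95, 0.66 and 1.32 with all bases. With transcripts that run past the exon left out, some values became 0, the round difference was 2.65, and the elongating groups overlapped at a difference of 2.02.

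**Figure D5:**
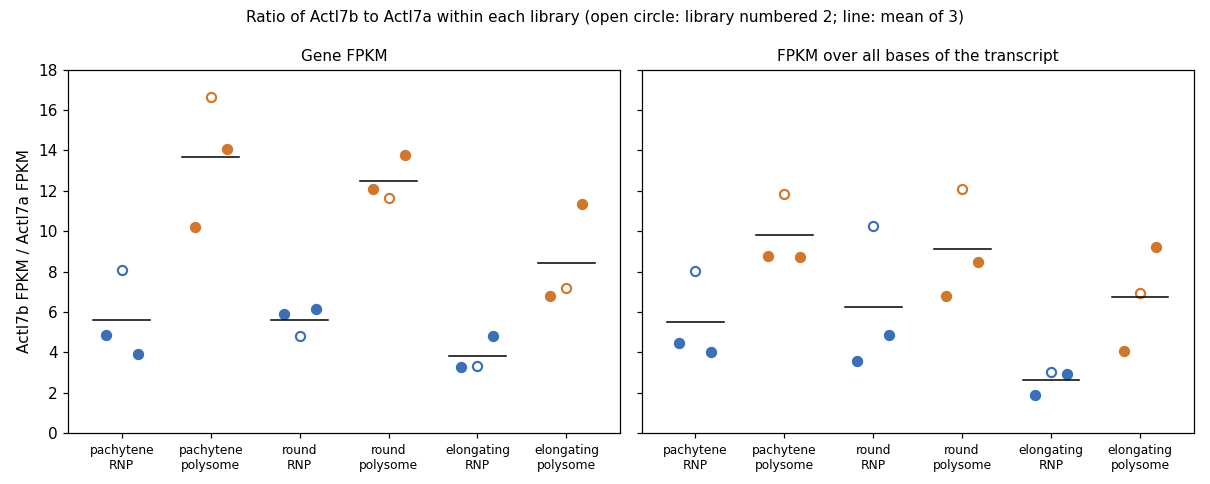
Ratio of Actl7b FPKM to Actl7a FPKM in each library by group (blue, RNP; orange, polysome; open circle, library numbered 2; line, mean of 3), from gene FPKM (left) and from FPKM over all bases of the transcript (right). On the left the polysome values lie above the RNP values of the same cell type without overlap, and on the right the round groups overlap.

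*Actrt2* and *Spem1* were the only other pair of the 28 with such a separation in all 3 cell types. As the difference of their log2(FPKM + 1), it was -0.97, 2.27 and 0.91 in pachytene RNPs against 2.49, 3.45 and 4.44 in polysomes. It was 0.69, 1.27 and 0.58 in round RNPs against 2.99, 2.65 and 4.25 in polysomes, and -0.33, 0.47 and 0.89 in elongating RNPs against 1.44, 3.03 and 2.82 in polysomes. *Spem1* was listed at 0 in the 4 libraries numbered 2, where the difference is only that of *Actrt2*. Of the other 14571 genes, 25 or 0.172% lay above *Spem1* in this way. The difference between fractions was 2.72, 2.45 and 2.08, and 3.49, 2.99 and 2.08 without the 4 libraries numbered 2. With a pseudocount of 0.1 the pachytene and round groups overlapped, and with length-weighted values or all bases the round groups did.

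The 8 genes moved together across the 18 libraries, which share depth and composition. Pearson's r of their log2(FPKM + 1) ran from 0.64 (*Actl7b* with *Cylc2*) to 0.96 (*Actl9* with *Ccin*), as a description. Among 7028 other genes with a mean FPKM of at least 10, the 5 most like the mean of the 8 standardised profiles were *Cypt12*, *Cst13*, *Spert*, *Tmco2* and *Hils1*, the last a spermatid linker histone, each with r of 0.99.

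Of 16 other genes of the perinuclear theca and acroplaxome, all tested, none was called in any of the 11 comparisons by limma, where 0.00686% to 6.44% of all genes were, and their median log2 fold change from pachytene to elongating polysomes was 0.40, beside -0.24 over all genes. The 3 with the highest mean FPKM were *Fabp9*, a fatty acid binding protein of the theca (1.54 ± 0.92), *Hist1h2ba*, a testis histone H2B (-2.22 ± 0.98), and *Vdac2*, a mitochondrial porin (0.38 ± 0.64). *Hist1h2ba* was at 1795 and 2194 in the polysome libraries 2 of pachytene and round cells, in which the 8 genes had low values, and at 127 to 213 in elongating polysomes.

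Of 18 other actin-like, actin-related and actin genes tested, out of 21, 2 were higher and 1 lower in elongating than in pachytene polysomes, against 3.19% and 2.90% of all genes. *Actrt1*, the X-linked relative of *Actrt2*, was higher by 3.95 ± 0.93 (adjusted p = 0.0248, limma), from 3.32, 0 and 1.62 to 37.1, 30.4 and 33.6. *Actg2*, the γ actin of smooth muscle, was higher by 3.27 ± 0.92 (adjusted p = 0.0470, limma), from 14.1, 8.37 and 6.76 to 108, 86.1 and 102. *Actr5*, of the INO80 chromatin remodeller, had a log2 fold change of -2.0003 (from 15.97 ± 6.01 to 3.12 ± 0.68, adjusted p = 0.0372, limma). *Actl6a* and *Actr8*, nuclear actin-related genes, were the 2 called higher in polysomes than RNPs of pachytene cells, where 6.31% of all genes were.

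Of 14 actin capping and turnover genes tested, out of 15, *Cap2*, a cyclase-associated protein, was the 1 gene called higher in elongating than pachytene polysomes, where 3.19% of all genes were, by 2.98 ± 0.77 (adjusted p = 0.0346, limma), from 39.0, 6.26 and 9.17 to 111, 139.6 and 91.0. *Capza1*, the general paralog of *Capza3*, went the other way in level, with 193, 141 and 238 in pachytene and 125, 134 and 129.7 in elongating polysomes, and was not called there. *Capza1*, *Cfl1* (cofilin) and *Pfn2* (profilin) were the 3 genes of this list called higher in polysomes than RNPs of pachytene cells, against 6.31% of all genes. None of the 9 manchette genes and *Spem1* partners was called in any of the 11 comparisons by limma, where 0.00686% to 6.44% of all genes were. From pachytene to elongating polysomes 5 of the 9 were higher, with a median of 0.81, beside -0.24 over all genes. The 3 with the highest mean FPKM were all higher there, *Meig1* at 0.81 ± 1.08, *Hook1* at 1.54 ± 0.94 and *Rimbp3* at 1.03 ± 0.85. *Prm1*, the protamine of the sperm nucleus, had 7776 ± 5049 in elongating RNPs and 654 ± 586 in polysomes, where elongating polysome 3 was listed at 0.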

How the data were processed

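Per the labels and the methods, the authors sequenced stranded total RNA libraries (some single, some paired reads) and used TopHat2 for alignment to mm9 and Cufflinks for assembly, library by library; full version numbers are not given in the sources used here. The deposited files give the FPKM of every transcript of a library, scaled within that library alone and without counts; the depth that the study tabulates was not used here, so the depth behind a value is unknown; coverage per unit of FPKM, which rises with depth and read length, was 1.20 to 2.26.

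Transcripts were matched to GENCODE genes of NCBIM37 by strand and a shared splice junction, or, for genes without introns, with at least 50% of the transcript in the exon, and their FPKM summed. Since that rule gave 0 in 10 of 144 values where transcripts ran past the exon, those covering at least 50% of the exon were also counted; this was decided after the values were seen. Transcripts not assembled were taken as 0.

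log2(FPKM + 1) of genes that reached an FPKM of 1 in 3 or more libraries was tested with limma 3.58.1 (R 4.3.3, trend, two-sided, 6 groups, Benjamini-Hochberg); fold changes of low genes are understated on this scale. The test was checked on simulated data with independent normal noise for each gene and library. These held no shift shared by libraries and no unassembled transcripts, so the check does not cover those features of the data. Named genes were the 8, from each list those called (at most 4 by mean FPKM) or the 3 with the highest mean, *Tnp2*, *Clu*, *Prm1* and the 5 most alike. The members, lists and rule were chosen with earlier results of these data known. Same-numbered libraries deviated together for round fractions (r of 0.57, 0.69 and 0.20) and for pachytene and round RNPs (0.45, 0.62 and 0.12). For pachytene fractions libraries 1 and 2 did so and 3 did not (0.40, 0.33 and -0.06). In these comparisons the replicate block changed no call of the 8. The share of all genes called higher in pachytene polysomes than RNPs went from 6.31% to 12.3% with it. Alternatives were 10 planned, 5 added after seeing the data, and each library left out.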

Additional observations from a re-analysis of the deposited data

How the results depend on the processing

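The counts of called genes among the 8 stayed at 0 in 8 of the 11 comparisons under all alternatives and with any library left out. From pachytene to elongating polysomes the count was 2 and ranged from 0 to 4 with 1 library left out; 0 was reached without pachytene polysome 2 or 3 or any elongating polysome library, and 4 without round RNP 2. It was 1 with a pseudocount of 0.1, without a filter, with a floor of 5, with median-ratio scaling, with quantile normalization, with unmatched single-exon transcripts counted and with transcripts that run past the exon left out. It was 5 with only the groups compared and without both round libraries numbered 2, 4 without the pachytene and round libraries numbered 2, and 6 with median-ratio scaling without both round libraries numbered 2. In RNPs it was 4 instead of 0 without both round libraries numbered 2, and 5 with median-ratio scaling as well. In both comparisons the spread is pooled over all groups, and leaving libraries out changes it. The share of all genes called higher in elongating polysomes moved too, from 3.19% to 4.91% without the pachytene and round libraries numbered 2. For the other settings of this paragraph that share is not given, so their counts are not read as a result about the 8 genes.

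The replicate numbers did not pair the libraries of elongating cells with those of earlier cells. With the replicate block, 4 genes were called from pachytene to elongating RNPs, 4 from pachytene to elongating polysomes and 4 from round to elongating polysomes; with median-ratio scaling added these were 5, 4 and 1. With the block alone 4.84%, 7.07% and 4.14% of all genes were called higher. With scaling added that share is not given, so the counts of 5, 4 and 1 are not read as a result about the genes followed here. The block changed no other call.

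Of 32 log2 fold changes of elongating against earlier cells, 13 of 1056 repeats changed sign. Without the round libraries numbered 2, *Actl7b* turned to -0.16 in RNPs and -0.040 in polysomes (-0.039 with median-ratio scaling too) against round cells; with 1 library left out these ranged from -0.16 to 1.75 and from -0.040 to 2.38. With transcripts that run past the exon left out, values of 0 turned *Actl7a* to -0.56, *Actl7b* to -1.70 and *Capza3* to -2.72 against round polysomes, and to -2.49, -2.27 and -3.98 against pachytene polysomes, and *Actl7b* to -2.05 between the elongating fractions. Between the round fractions *Actl7b* became -0.086 with median-ratio scaling, with or without the block, and *Actrt2* -0.10 with that scaling and without both round libraries numbered 2. With 1 library left out, these ranged from -0.51 to 2.06 and from -0.92 to 2.42, and *Spem1* between the pachytene fractions from -3.17 to 0.37; the cause was not tested. The deposited FPKM carry no counts, so the counting error of low values is unknown.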
